A study of Populus alba x Populus glandulosa with 18 samples.

Results

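A set of 55 gene IDs differed from wild type in roots of a poplar line that lacks both bHLH58 and bHLH151, while neither single knockout moved them far from wild type. They were chosen by 3 differences of group means on the log2(FPKM + 1) scale, where FPKM is the fragments counted for an ID relative to its length and to the size of the library. An ID entered the set if the double knockout minus wild type was at least 0.7 in absolute value and if both single knockouts minus wild type were under 0.3 in absolute value. The rule was applied to the 40951 IDs, of 71159 in the deposited table, that had at least 1 FPKM in at least 3 of 18 libraries. Of the 55 IDs, 38 were higher and 17 were lower in the double knockout.

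The study sequenced root RNA of 84K poplar, a hybrid of Populus alba and Populus glandulosa, to look for genes linked to a root phenotype. The groups were bhlh58/151-KO (line 32, the double knockout), bhlh58-KO (line 6), bhlh151-KO (line 40), bHLH151-OE (line 17, overexpression), bHLH58-OE (line 20, overexpression) and the wild type 84K (WT), with 3 libraries each. Each transgenic genotype is 1 line, so effects of a genotype and of its line cannot be told apart, and the labels give neither the promoter of the overexpression lines nor the plant age. Nothing in them states that replicate libraries are separate plants, and a p-value therefore covers only the spread between libraries, which may be technical. Sequencing depth is unknown, and each library had 36450 to 38499 IDs at 1 FPKM or more. In whole roots, fewer cells of a type and less RNA per cell cannot be told apart.

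Basic helix-loop-helix (bHLH) proteins are transcription factors that bind DNA as pairs, often of related family members, and plant bHLH factors are known for roles in root hair formation, vascular development and responses to nutrients. Related factors can stand in for each other, so plant geneticists compare a double mutant with both single mutants of a pair. The deposited table does not pair its IDs with gene names, and no annotation was used here, so no member can be given a function and the targeted genes, root cell type markers and gene pathways could not be looked up. Sequences of the members are likewise not shown.

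The set was small beside the whole response of the double knockout. An absolute difference from WT of at least 0.7 was found for 2356 IDs, which is 5.75% of those tested. In 1883 of them both single knockouts also differed from WT by at least 0.3 in absolute value, in 298 only bhlh151-KO did so, and in 120 only bhlh58-KO did so. The remaining 55 were 2.33% of the 2356. The values that chose the members are given here as a description and support no test.

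Among the 38 higher IDs the double knockout minus WT ran from 0.70 to 1.17 with a median of 0.77, where the median over all tested IDs was -0.064. Their medians in the single knockouts minus WT were 0.087 for bhlh58-KO and 0.086 for bhlh151-KO. Among the 17 lower IDs the double knockout minus WT ran from -1.57 to -0.71 with a median of -0.86, and the single-knockout medians were 0.067 for bhlh58-KO and -0.21 for bhlh151-KO. Of the lower IDs, 16 of 17 were below WT in bhlh151-KO and 7 of 17 were below WT in bhlh58-KO. Among all 40951 tested IDs, 25134 were below WT in bhlh151-KO and 19898 in bhlh58-KO. The rule used these values, so nothing is read from the counts. In bhlh151-KO the median difference from WT over all tested IDs was itself -0.11 as deposited and 0.0021 after median-of-ratios scaling, and after that scaling 13 of the 17 lower IDs were below WT in bhlh151-KO, with a median of -0.089.

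Many members lay close to the threshold. On the higher side the nearest IDs inside it had differences of 0.7033, 0.7073 and 0.7074, and the nearest outside had 0.6959, 0.6958 and 0.6951. On the lower side the nearest inside were at -0.7056, -0.7129 and -0.7182 and the nearest outside at -0.6999, -0.6825 and -0.6714. For the larger of both single-knockout differences, the nearest inside were at 0.2984, 0.2967 and 0.2903 and the nearest outside at 0.3075, 0.3178 and 0.3189. Of the 55 IDs, 29 had a double-knockout difference under 0.8 in absolute value, and 62 further IDs that met the single-knockout part of the rule lay between 0.6 and 0.7.

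**Figure D1:**
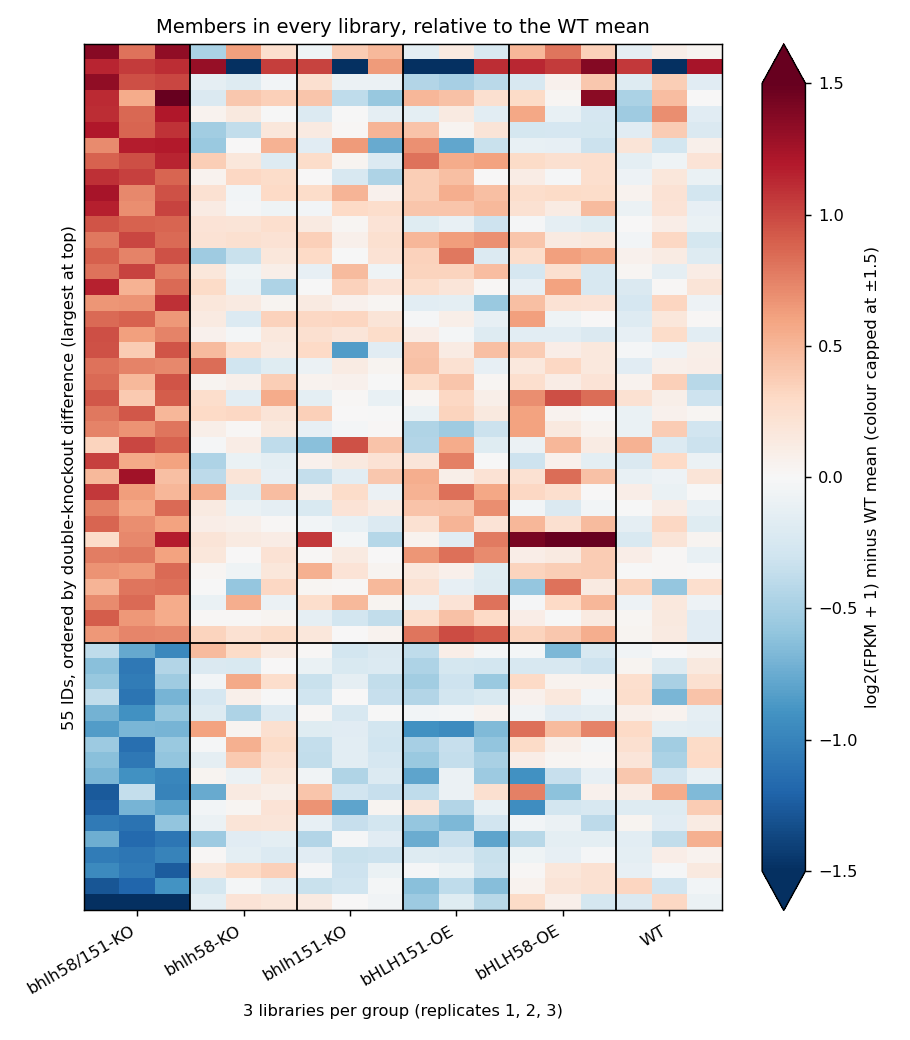
Each row is 1 of the 55 IDs and each column 1 library, with colour giving log2(FPKM + 1) minus the mean of the 3 WT libraries (capped at 1.5 in absolute value). The 38 higher IDs stand above the horizontal line and the 17 lower IDs below it, and the double-knockout columns at the left carry the strongest colours in most rows.

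A small difference in a single knockout is not evidence of no change. The 95% intervals of the limma fit for bhlh58-KO minus WT and for bhlh151-KO minus WT had a median half-width of 0.36 among the members. Both intervals lay within 0.7 of zero for 46 of the 55 IDs. In the same fit 3 of the 55 were called in bhlh58-KO against WT at a limma adjusted p under 0.05, against 22.4% of all tested IDs, and 2 of the 55 were called in bhlh151-KO against WT, against 48.4%. In the double knockout against WT, 50 of the 55 were called, against 28.8%. The rule used all 3 contrasts, so nothing is read from these counts.

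All 55 members passed the filter on low values by construction, and 3 of them (PAxG05Ag0222800, PAxG06Gg0085400 and PAxG10Gg0059000) passed it only with the help of the double-knockout libraries. The mean over the 18 libraries was under 1 FPKM for 4 members, from 1 to 5 FPKM for 27, from 5 to 20 FPKM for 14 and over 20 FPKM for 10. All tested IDs had 7.05%, 45.2%, 34.8% and 12.9% in the same classes, where the members had 7.27%, 49.1%, 25.5% and 18.2%. The median member stood at 4.97 FPKM in the double knockout, 3.69 FPKM in bhlh58-KO, 3.36 FPKM in bhlh151-KO and 3.73 FPKM in WT. The most abundant member was PAxG01Ag0090500, singled out after its values were seen, at 395, 378 and 375 FPKM in the double-knockout libraries, against 236, 234 and 244 FPKM in bhlh58-KO, 226, 210 and 237 FPKM in bhlh151-KO and 206, 219 and 191 FPKM in WT. Its double-knockout libraries lay above all others. Its bhlh58-KO libraries also lay above those of WT, with a log2(FPKM + 1) difference of 0.21. It was among the members called in bhlh58-KO against WT.

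Of the higher IDs, the naming rule picked PAxG01Ag0277500 first, for the largest difference among those that met it. It stood at 103, 79.5 and 81.9 FPKM in the double-knockout libraries, against 36.5, 35.0 and 39.1 FPKM in bhlh58-KO, 47.8, 38.0 and 37.8 FPKM in bhlh151-KO and 35.2, 52.1 and 35.6 FPKM in WT. No library of another group reached the lowest double-knockout value, and WT replicate 2 was the highest of the WT libraries. The means were 88.2 ± 13.0 FPKM in the double knockout and 41.0 ± 9.65 FPKM in WT (SD, n = 3 each), a log2(FPKM + 1) difference of 1.10 with a standard error of 0.15. In the overexpression lines it was at 29.5, 28.2 and 30.3 FPKM in bHLH151-OE and at 33.9, 42.2 and 53.7 FPKM in bHLH58-OE, so the lowest values of all 18 libraries were those of bHLH151-OE.

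The other higher ID taken by the naming rule, PAxG16Gg0127400, was a low one. Its double-knockout libraries were at 6.37, 5.22 and 6.88 FPKM, against 2.56, 2.79 and 2.42 FPKM in bhlh58-KO, 1.96, 2.42 and 2.13 FPKM in bhlh151-KO and 1.37, 4.56 and 2.05 FPKM in WT. The groups did not overlap, but WT was uneven, with replicate 2 close to the double knockout. Its difference from WT was 1.05 with a standard error of 0.23, and it was 0.79 without WT replicate 1 and 1.40 without WT replicate 2. The bHLH58-OE libraries, at 4.14, 2.18 and 1.89 FPKM, were uneven as well, while bHLH151-OE was at 2.09, 2.78 and 2.07 FPKM.

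Among the lower IDs the naming rule took PAxG02Ag0094200 first. It stood at 1.75, 1.92 and 2.58 FPKM in the double-knockout libraries, against 4.54, 5.56 and 5.06 FPKM in bhlh58-KO, 4.31, 4.44 and 5.53 FPKM in bhlh151-KO and 7.36, 4.48 and 5.49 FPKM in WT. All double-knockout values were below every value of the other groups. The difference from WT was -1.12 with a standard error of 0.14.

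PAxG02Ag0031200 was an abundant lower ID. It had 43.6, 31.7 and 44.6 FPKM in the double-knockout libraries, against 61.5, 89.5 and 79.2 FPKM in bhlh58-KO, 52.2, 60.5 and 56.5 FPKM in bhlh151-KO and 76.7, 48.3 and 83.7 FPKM in WT. The gap to WT was narrow, because WT replicate 2 at 48.3 FPKM lay just above the highest double-knockout library. The difference from WT was -0.76 with a standard error of 0.17, and it was -0.61 without double-knockout replicate 2.

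Members PAxG10Gg0127700 and PAxG10Ag0122900, singled out after their values were seen, followed PAxG02Ag0031200 closely. Across the 18 libraries the log2 values of PAxG10Gg0127700 and PAxG10Ag0122900 had a Pearson correlation of 0.996, and those of PAxG02Ag0031200 with each of them had 0.988 and 0.985, in the order just named. PAxG10Gg0127700 was at 46.8, 30.9 and 46.4 FPKM in the double knockout, against 81.2, 47.4 and 84.1 FPKM in WT. PAxG10Ag0122900 was at 52.0, 36.8 and 53.1 FPKM in the double knockout, against 92.3, 54.8 and 91.7 FPKM in WT. In all 3 IDs replicate 2 was the lowest library both in the double knockout and in WT. Whether these IDs share reads was not tested, so they are counted here as 3 IDs and not as 3 independent observations.

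The member with the largest difference was PAxG07Ag0058500, which the naming rule left out because its mean was under 5 FPKM in both groups. It stood at 0.069, 0.029 and 0.084 FPKM in the double-knockout libraries, against 1.85, 2.64 and 2.56 FPKM in bhlh58-KO, 2.46, 2.17 and 2.05 FPKM in bhlh151-KO and 1.71, 2.91 and 1.95 FPKM in WT. In the overexpression lines it was at 1.17, 1.77 and 1.37 FPKM in bHLH151-OE and 2.84, 2.32 and 1.63 FPKM in bHLH58-OE. The ID was thus near zero in line 32 and above 1 FPKM in all 15 libraries of the other groups. The difference from WT was -1.57, a scale that understates the change of so low an ID.

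**Figure D2:**
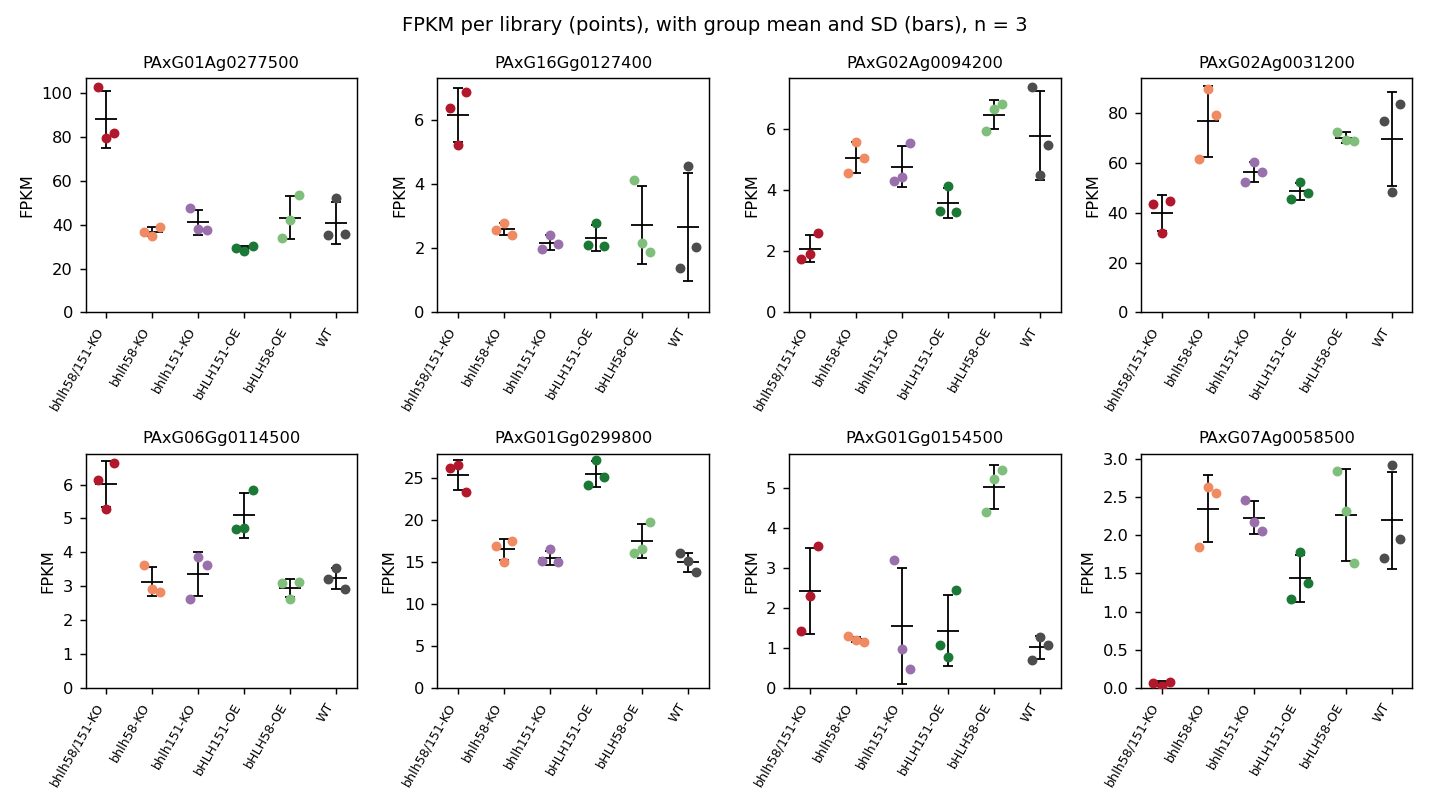
FPKM in each of the 18 libraries (points) for the 7 IDs taken by the naming rule and for PAxG07Ag0058500, with the group mean and SD as bars (n = 3). PAxG07Ag0058500 is near zero in the double knockout alone, and WT replicate 2 lies nearest the double knockout in PAxG01Ag0277500, PAxG16Gg0127400, PAxG02Ag0094200 and PAxG02Ag0031200.

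How well the double-knockout libraries stood apart differed between members. The 3 double-knockout and 3 WT libraries did not overlap in 51 of the 55 IDs, where 44% of all tested IDs showed no overlap. In 20 of the 38 higher IDs the double-knockout libraries were above all 15 other libraries, which was seen in 0.925% of all tested IDs. In 6 of the 17 lower IDs they were below all 15, which was seen in 0.628% of all tested IDs. The rule selects for this, so these shares describe the set and support nothing. The other 29 IDs had at least 1 library of another group within or beyond the double-knockout range.

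Within the set, WT replicate 2 was the WT library that most often lay on the side of the double knockout. It was the highest WT library in 25 of the 38 higher IDs and the lowest WT library in 9 of the 17 lower IDs. In the double knockout, replicate 2 was the lowest library in 18 of the 38 higher and 10 of the 17 lower IDs. The same counts over all tested IDs were not taken. The median distance of WT replicate 2 from the WT mean was 0.13 in the higher IDs and -0.19 in the lower IDs, against 0.0079 over all tested IDs. It correlated with the other WT libraries over all tested IDs at 0.984 and 0.983, where WT replicates 1 and 3 correlated at 0.987. The members' spread in WT was wide too, with a median SD of log2 values of 0.24 against 0.12 over all tested IDs, and in the double knockout it was 0.20 against 0.12. The rule reads the WT mean in all 3 of its differences, and the part of WT replicate 2 in the choice of members can be read from leaving it out.

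**Figure D3:**
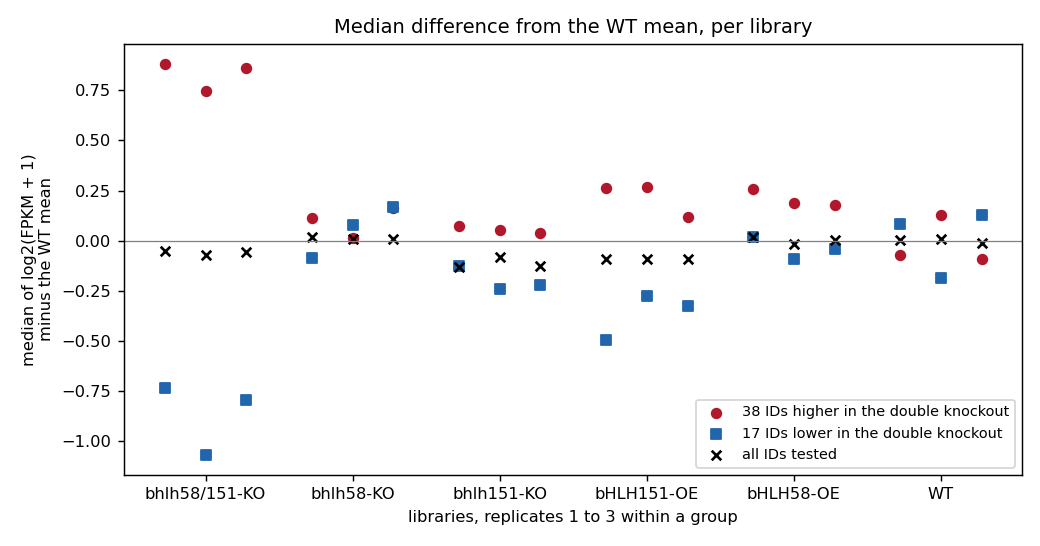
For each library, the median over IDs of log2(FPKM + 1) minus the WT mean, for the higher members (circles), the lower members (squares) and all tested IDs (crosses). WT replicate 2 deviates toward the double knockout in both sets, and the medians of the lower members lie below zero in all 3 bHLH151-OE libraries.

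Membership depended on single libraries. Without WT replicate 2 the rule gave 49 IDs, of which 28 were among the 55. Without WT replicate 1 it gave 47 with 25 shared, and without WT replicate 3 it gave 54 with 30 shared. Leaving out a double-knockout library gave 60 to 75 IDs, with 41 to 44 shared, and leaving out a single-knockout library gave 50 to 54 IDs, with 43 to 48 shared. The filter on low values was kept as with all 18 libraries and not redone. Only 6 of the 55 met the rule's differences in all 12 leave-outs of the 4 groups it uses. These were PAxG01Ag0277500, PAxG01Ag0090500, PAxG17Ag0199800, PAxG05Ag0222800 and NewGene_6922 among the higher IDs and PAxG07Ag0058500 among the lower ones. PAxG05Ag0222800 reached 1 FPKM only in the 3 double-knockout libraries, so a filter redone without any of these would drop it.

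Scaling moved the membership as well. Median-of-ratios scaling gave 58 IDs, 38 of them among the 55, and quantile normalization gave 55 IDs, 34 of them among the 55. A pseudocount of 0.1 FPKM in place of 1 gave 124 IDs with 35 shared, and rescaling every library to the same total (TPM) gave 100 with 40 shared. All 55 kept the sign of their double-knockout difference under the 3 other scalings. The rule chose the members for a large absolute difference from WT, which favours this outcome, so nothing is read from it. Of the 55, 17 met the rule under all 4 of these settings. Of these, 5 also met the rule's differences in every leave-out, namely the 6 IDs above without PAxG17Ag0199800.

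**Figure D4:**
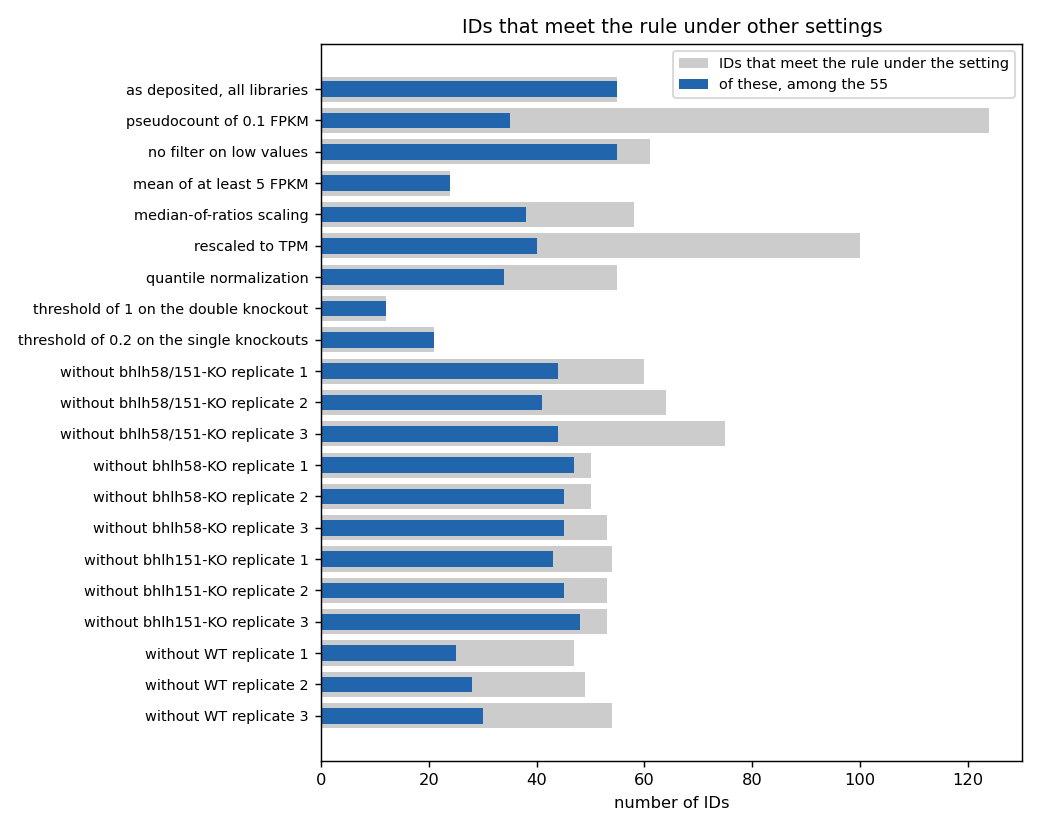
Number of IDs that meet the rule under each setting (grey bars) and how many of these are among the 55 (blue bars), with each setting changed alone. Leaving out a WT library keeps 25 to 30 of the 55, fewer than leaving out any library of a knockout.

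The overexpression libraries entered the rule only through its filter on low values, which PAxG06Gg0085400 alone among the members passed with their help. The double-knockout and bHLH151-OE libraries did not overlap in 35 of the 55 IDs, against 28.2% of all tested IDs, and the double-knockout and bHLH58-OE libraries did not overlap in 43, against 35.1%. The rule favours double-knockout values far from WT, which raises both counts, so nothing is read from them. In 1 ID of each count the overexpression line lay further from WT than the double knockout, PAxG05Ag0041900 in bHLH151-OE and PAxG01Gg0154500 in bHLH58-OE. Among the 38 higher IDs the median difference from WT was 0.23 in bHLH151-OE and 0.21 in bHLH58-OE, and 22 of the 38 were above WT in both lines. Among the 17 lower IDs it was -0.38 in bHLH151-OE, where all 17 were below WT, and 0.034 in bHLH58-OE, where 8 of the 17 were below WT. Over all tested IDs the medians were -0.091 in bHLH151-OE and close to zero in bHLH58-OE. Of these 40951 IDs, 25628 were below WT in bHLH151-OE and 20471 in bHLH58-OE. The count above WT in both lines was not taken over all tested IDs. Under median-of-ratios scaling and under quantile normalization 16 of the 17 lower IDs were below WT in bHLH151-OE, and under both 26 of the 38 higher IDs were above WT in both lines. These differences share the WT libraries that helped to choose the members and were therefore not tested.

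An absolute difference from WT of at least 0.7 was found for 4 of the 55 members in bHLH151-OE, against 6.85% of all tested IDs, and for 3 of the 55 in bHLH58-OE, against 1.42%. In bHLH151-OE, PAxG05Ag0041900 and PAxG01Gg0299800 were at least 0.7 above WT among the higher IDs, with differences of 0.90 and 0.73, and NewGene_2583 was 0.84 below WT among the lower IDs (-0.84). In bHLH58-OE, PAxG01Gg0154500 and NewGene_3145 were at least 0.7 above WT, with differences of 1.58 and 0.83. PAxG05Ag0014200 also passed this size, in opposite directions in the overexpression lines, and was listed at 0 in several libraries.

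The comparison whose differences the choice of members does not fix is that of bHLH151-OE with bHLH58-OE. The rule's differences from WT use none of these 6 libraries. Its filter needed them for PAxG06Gg0085400 alone, which was not called here. The comparison asks how the lines that overexpress either factor differ from each other. Of the 55 members, 16 were called at a limma adjusted p under 0.05, against 24.5% of all tested IDs (10036 of 40951). That is 29.1% of the members, a share near the background in this fit. The fit's estimate of spread also draws on the WT and knockout libraries that chose the members. The calls are therefore not free of that choice, and the members' spread in WT was wide, as given above. The shares lay further apart in other fits, at 40% of the members against 20.3% of all tested IDs under quantile normalization, and at 34.5% against 19.9% with the overexpression lines alone in the fit. With an overexpression library left out they were 18.2% to 25.5% of the members, against 19.3% to 21.2% of all tested IDs. By direction, 4 members were higher in bHLH151-OE, against 8.64% of all tested IDs, and 12 were lower, against 15.9%. The 12 lower ones include PAxG10Gg0127700, PAxG10Ag0122900 and PAxG02Ag0031200, which are not counted here as independent observations. The split depended on scaling: 64.7% of all calls were lower as deposited and 41.0% after median-of-ratios scaling, and the members' calls were then 10 higher and 6 lower. The median difference over all tested IDs was -0.092 as deposited and -0.0010 after median-of-ratios scaling. The libraries of both lines did not overlap in 26 of the 55 members, against 38.6% of all tested IDs.

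PAxG06Gg0114500 was the member with the largest called rise in bHLH151-OE over bHLH58-OE. It stood at 4.70, 4.71 and 5.85 FPKM in bHLH151-OE, against 3.09, 2.63 and 3.12 FPKM in bHLH58-OE. The lines did not overlap, and the log2 difference was 0.62 (SE 0.12, limma adjusted p = 0.00102). Its double-knockout libraries were at 6.13, 5.29 and 6.63 FPKM, above the 2.92 to 3.55 FPKM of WT.

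PAxG01Gg0299800 followed, at 24.2, 27.2 and 25.1 FPKM in bHLH151-OE, against 16.1, 16.6 and 19.8 FPKM in bHLH58-OE. The log2 difference was 0.52 (SE 0.087, limma adjusted p = 0.000191). The ID was as high in the double knockout, at 26.2, 26.6 and 23.3 FPKM, as in bHLH151-OE, against 16.9, 15.0 and 17.5 FPKM in bhlh58-KO, 15.1, 16.5 and 15.0 FPKM in bhlh151-KO and 16.0, 15.1 and 13.8 FPKM in WT. Its level thus separated 6 libraries, those of the double knockout and of bHLH151-OE, from the other 12.

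PAxG01Gg0154500 was lowest in bHLH151-OE relative to bHLH58-OE among the members that met the naming rule. It stood at 1.08, 0.781 and 2.44 FPKM in bHLH151-OE, against 4.41, 5.22 and 5.46 FPKM in bHLH58-OE, a log2 difference of -1.36 (SE 0.30, limma adjusted p = 0.00291). Its highest libraries of all 18 were those of bHLH58-OE, while the double knockout was uneven, at 1.42, 2.31 and 3.56 FPKM, against 0.71, 1.29 and 1.07 FPKM in WT. PAxG02Ag0094200, described above as a lower ID, fell in bHLH151-OE relative to bHLH58-OE, at 3.32, 4.15 and 3.27 FPKM against 5.93, 6.66 and 6.80 FPKM (log2 difference -0.71, SE 0.14, limma adjusted p = 0.00102). For these 4 IDs the direction and the call held under each alternative setting in which the ID was tested. The naming rule chose them for a call and for lines without overlap, which favours this outcome.

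**Figure D5:**
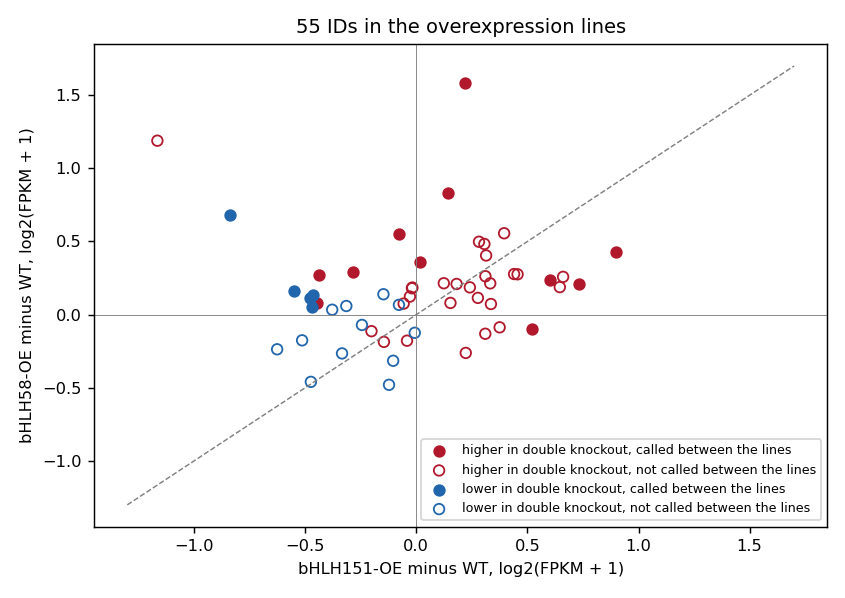
Each point is 1 of the 55 IDs, with bHLH151-OE minus WT on the horizontal axis and bHLH58-OE minus WT on the vertical axis, both as differences of log2(FPKM + 1). Filled points are the 16 called between the lines, the dashed line marks equal differences, and all 17 lower IDs (blue) lie left of zero as deposited, 16 of 17 after median-of-ratios scaling.

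The members were spread over the forms of ID in the table. The letter A stood in 27 of the 55 IDs (49.1%, against 47.2% of all tested IDs) and the letter G in 21 (38.2%, against 46.1%). The NewGene form held 7 (12.7%, against 6.66%). The 48 members with a number from 1 to 19 after PAxG carried 18 of these numbers. Number 1 held 9 members among 4781 tested IDs, number 17 held 5 among 1293, and number 4 held 0 among 2144.

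Position in the order of IDs linked a few members. Among the higher IDs, PAxG17Ag0199800, PAxG17Ag0200200 and PAxG17Ag0200500 lay within 6 places of each other, and they were the only members within 10 places of another. They were singled out after their values were seen. PAxG17Ag0199800 was at 39.0, 27.9 and 35.0 FPKM in the double knockout, against 15.7, 19.5 and 15.4 FPKM in WT. PAxG17Ag0200200 was at 9.69, 6.83 and 7.02 FPKM in the double knockout, against 3.55, 5.49 and 3.96 FPKM in WT. PAxG17Ag0200500 was at 14.5, 9.45 and 14.4 FPKM in the double knockout, against 6.93, 6.61 and 7.53 FPKM in WT. In each of these IDs all double-knockout libraries were above all WT libraries, and replicate 2 was the lowest double-knockout library. Only in PAxG17Ag0199800 were they above all libraries of the other groups. PAxG17Ag0200500 reached 10.2 FPKM in bhlh58-KO and 9.93 FPKM in bHLH151-OE, within the double-knockout range. PAxG17Ag0200200 reached 7.91 FPKM in bHLH151-OE, also within that range.

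Of the 56 tested IDs directly before or after a member in this order, 7 (12.5%) differed from WT by at least 0.7 in the double knockout, all in the direction of their member, beside the 5.75% of all tested IDs given above. In all 7 at least 1 single knockout differed from WT by 0.3 or more, which is why they are not members. The median absolute difference of the neighbours was 0.20, as it was over all tested IDs. Whether neighbouring IDs overlap or share reads was not tested.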

How the data were processed

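Root RNA was sequenced in 18 libraries of 6 groups. The deposited table holds FPKM values per gene ID and library, the unit given by its name. How the authors aligned and quantified the reads, and on which build and annotation, is not given in the sources used here. DESeq2 is listed in the submitters' processing notes without a stated role. Since FPKM values are normalized, count models were not applied. A search for whole-read steps below 0.3 FPKM in 153 pairs of libraries found at most 1.58% of ratios in a bin of 0.02 (log2), so depth was not recovered.

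Values were transformed as log2(FPKM + 1). The 40951 IDs that reached 1 FPKM in 3 or more libraries were fitted together in R 4.3.3 with limma 3.58.1 (eBayes with trend and robust estimation, a mean per group, 12 residual degrees of freedom), with Benjamini-Hochberg adjustment over all of them. The procedure was run on simulated data with independent normal noise and planted shifts, as a check of the code. The simulation planted no shifts in the lowest IDs and had no offsets between lines, so it does not bear on these. The members, comparisons and naming rule were chosen with earlier results of these data known. Named IDs are, per comparison, up to 2 higher and 2 lower members with no overlap between the groups' libraries and 5 FPKM or more as the mean of the higher group, and, between the overexpression lines, a call. Alternatives were other pseudocounts, filters, scalings, thresholds and fits, and leaving out each library of the groups a result compares. The filter was not redone when a library was left out.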

Additional observations from a re-analysis of the deposited data

How the results depend on the processing

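Against 55 IDs, the rule gave 124 with a pseudocount of 0.1 FPKM, 100 after rescaling to TPM, 24 among IDs with a mean of at least 5 FPKM, 12 with a threshold of 1 on the double knockout and 21 with a threshold of 0.2 on the single knockouts. The last 3 only narrow the rule or the IDs tested. Rescaling to TPM also raised all values against the unchanged pseudocount and filter. For the changes other than the last 3 the cause was not tested. It gave 61 with no filter, 55 under quantile normalization and 58 under median-of-ratios scaling. With any WT, double-knockout or single-knockout library left out and the filter not redone, it gave 47 to 75. For bHLH151-OE against bHLH58-OE, the count of 10036 was 6425 among the fewer IDs with a mean of at least 5 FPKM and 7910 to 8668 with any overexpression library left out. The 16 members called were 22 under quantile normalization (40%, against 20.3% of all IDs), 19 with the overexpression lines alone in the fit (34.5%, against 19.9%), 12 with no filter (21.8%, against 16.1%), 10 of 24 with a mean of at least 5 FPKM (41.7%, against 32.9%) and 10 to 14 with a library left out (18.2% to 25.5%, against 19.3% to 21.2%), the lowest without bHLH151-OE replicate 3 and without bHLH58-OE replicate 3. With members chosen without WT replicate 2, an alternative added after seeing the data, 15 of 49 were called (30.6%, against 24.5% of all IDs). Same-numbered libraries of these lines did not deviate together (correlations of deviations -0.048, -0.065 and 0.0045), and each bHLH151-OE replicate correlated best with another number. A replicate block gave 9821 calls (24.0% of all IDs), with 14 members (25.5%). No named member changed direction, which the naming rule fixes for leave-outs because it needs groups that do not overlap. Unknown depth limits what can be said of IDs near zero.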

Other observations

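Among the 55 IDs, 4 were listed at 0 FPKM in at least 1 library, namely PAxG05Ag0014200, PAxG10Gg0059000, NewGene_5160 and PAxG11Ag0014700. A value of exactly 0 may be an estimate that failed. PAxG05Ag0014200 was at 9.89, 9.22 and 9.61 FPKM in the double knockout, against 11.2, 0 and 9.12 FPKM in bhlh58-KO, 8.90, 0 and 6.67 FPKM in bhlh151-KO and 9.28, 0 and 10.6 FPKM in WT. In the overexpression lines it was at 0, 0 and 9.58 FPKM in bHLH151-OE and at 9.82, 9.19 and 11.8 FPKM in bHLH58-OE. Where it was not listed at 0, its level in WT and in bhlh58-KO was close to that in the double knockout. Its double-knockout difference was 1.10 with all libraries and -0.047 without WT replicate 2. It was the only member with an SD of log2 values of at least 1 in any group, and it was not called between the overexpression lines (log2 difference -2.35, SE 1.29, limma adjusted p = 0.212).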
